A study of Rattus norvegicus with 30 samples.

Results

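Emodin, an anthraquinone found in rhubarb root, was given to rats with severe acute pancreatitis (SAP), and the change in their lungs at 24 h, after 2 doses, was read from 6 of the 30 RNA-seq libraries of the study: the 3 labelled Emo-24h against the 3 labelled SAP-24h. The samples were chosen by their labels alone, and 15934 genes were tested. Every library was made from 1 rat's lung, the rats being Sprague Dawley males aged 8 weeks, so replicates were separate animals. In both groups a 5.0% solution of the bile salt sodium taurocholate, which damages pancreatic tissue, had been infused backwards through the biliopancreatic duct, and both sets of lungs had been rinsed through the pulmonary artery. Emo-24h rats then had emodin by stomach tube at 2 and 12 h, and SAP-24h rats had the carrier carboxymethylcellulose. The emodin dose is 40 mg/kg in the treatment protocol and the methods of the study, and 10 mg/kg in the descriptions of the samples. Direct comparisons were also made with Sham-24h, in which the pancreas was only handled at surgery, and with DEX-24h, in which rats with the same bile salt infusion had the glucocorticoid dexamethasone (10 mg/kg, intravenous) at the same hours. Emo-6h and SAP-6h rats, killed at 6 h, gave the earlier time point, and Emo-6h rats had emodin at 2 h only.

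In severe acute pancreatitis, enzymes and cytokines from the injured pancreas reach the lung through the blood, where endothelium is activated, neutrophils gather and fluid leaks into the airspaces. Cytokine signals switch on C/EBP, STAT and NF-kB factors, which drive acute-phase proteins, chemokines and their own inhibitors. Metal-binding proteins and chaperones form a further layer of the response, governed by factors that sense zinc, misfolded protein and glucocorticoids.

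Reads on genes numbered 25012600 to 31370567 in the 6 libraries, and 18002 to 18764 genes were detected. Replicate 1 of SAP-24h stood apart: its counts differed from replicates 2 and 3 by 208 and 130 times the counting variance, against 67.1 between those 2 and 37.4 to 49.5 among the Emo-24h rats. The counts of called genes in most lists are given with and without it below. Levels are in FPKM, fragments scaled to transcript length and sequencing depth. The lung label fitted the defining markers, with the surfactant gene Sftpc at 18138 to 30191 FPKM and the club cell gene Scgb1a1 at 24946 to 46742 FPKM. RNA of heart muscle was present in uneven amounts: the 18 heart muscle genes tested summed to 359, 185 and 265 FPKM in Emo-24h and to 15.4, 9.23 and 184 FPKM in SAP-24h, and none passed the test in edgeR, DESeq2 or limma (1 had an unadjusted p under 0.05). Its part in other results was not tested.

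Emo-24h rats differed from SAP-24h rats in 508 differentially expressed genes (DEGs), 3.19% of those tested. Of these, 308 (1.93%) were up-regulated and 200 (1.26%) were down-regulated with emodin. A DEG had an adjusted p under 0.05 by edgeR (quasi-likelihood test, p-values adjusted by Benjamini-Hochberg) and a change of at least 2-fold. The DEGs included 488 protein-coding genes, 9 long noncoding RNAs (lncRNAs) and 10 pseudogenes. The down-regulated DEGs were the more abundant: 124 of the 200 averaged 10 FPKM or more in one of the groups, against 41 of the 308 up-regulated ones. Changes of at least 4-fold were seen in 71 up-regulated and 62 down-regulated DEGs. The groups did not overlap in 450 of the 508 DEGs, while 29.3% of all genes tested showed no overlap (23% higher and 6.23% lower in Emo-24h). Overlap was judged on FPKM, which lacks the library scaling (TMM) used by edgeR. The TMM factors were 1.066, 1.098 and 1.059 in Emo-24h and 0.8885, 0.9306 and 0.965 in SAP-24h. With TMM the median log2 fold change of all genes tested was 0.02. The part of scaling in the counts without overlap, here and below, was not tested.

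The count of DEGs depended on the libraries in the model, which took its spread from all 30 libraries. With the 6 libraries alone, edgeR called 0 genes (smallest adjusted p = 0.0671), while 3240 of 15057 genes had an unadjusted p under 0.05. In the model of all libraries 26.3% of genes tested had an unadjusted p under 0.05, and 22.6% had one without SAP-24h replicate 1. These shares are the background for the unadjusted counts in lists below, as 1.93% called higher and 1.26% called lower are for the counts of DEGs in lists. With all libraries, DESeq2 called 699 genes. Leaving out Emo-24h replicate 2 left 136 calls, leaving out Emo-24h replicate 1 left 202, and leaving out SAP-24h replicate 1 left 282, of which 184 were among the 508. Of 140 DEGs among the genes named here or by the rule given with the methods, 86 lost their call without that rat. SAP-24h replicate 1 had the highest SAP level in 132 of the 200 down-regulated DEGs. The balance of directions moved too: 213 genes were called higher and 289 lower without SAP-24h replicate 2, 68 and 68 without Emo-24h replicate 2, and 231 and 204 without a filter on low counts. A core of 81 DEGs (41 up-regulated, 40 down-regulated) were called in every fit that omitted 1 of the 6 rats. Such genes are described below as stable, and any other DEG lost its call in at least 1 of these fits.

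**Figure D1:**
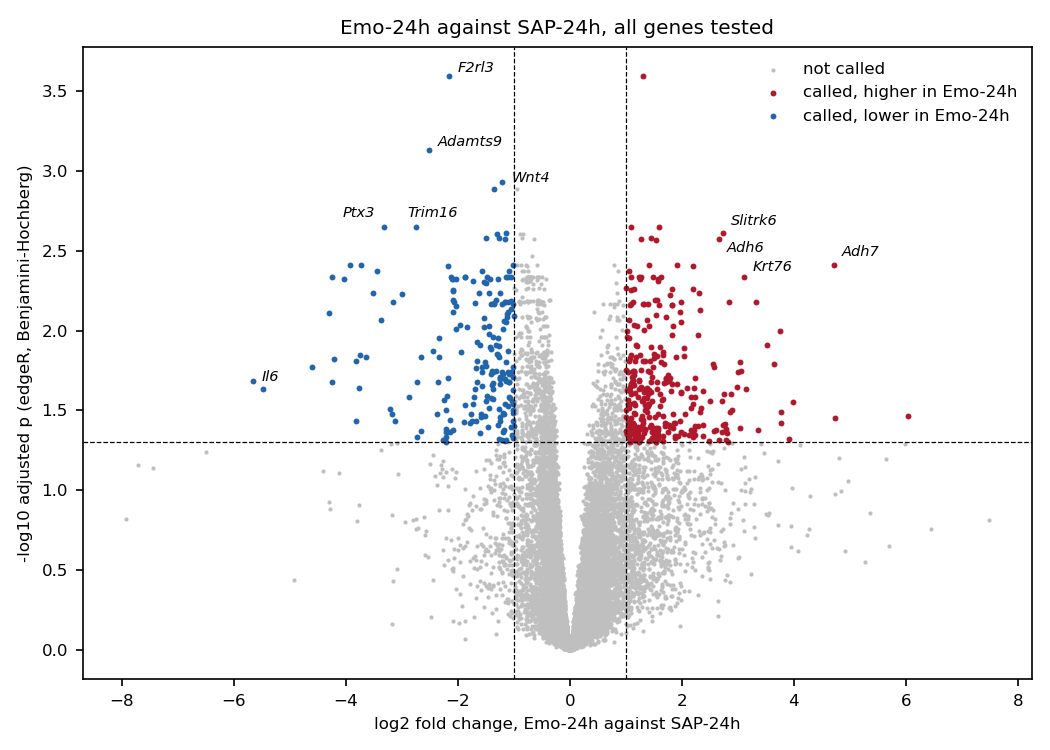
Each point is 1 of 15934 genes in Emo-24h against SAP-24h, with the log2 fold change on the horizontal axis and -log10 of the edgeR adjusted p on the vertical axis; dashed lines mark a 2-fold change and an adjusted p of 0.05. Red points are the 308 genes higher with emodin and blue points the 200 lower ones, and F2rl3 at a log2 fold change of -2.15 is the highest of the blue points.

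The largest rises and falls are given here for DEGs with separated groups, a gene name and a mean of at least 1 FPKM in either group. Some DEGs outside these limits, such as Muc4 (3.99) and Cyp26a1 (3.64), had larger log2 fold changes than most of these rises. The rises included genes known from surface epithelium, such as Adh7 and Krt76, and the natural killer receptor gene Klrb1c. Adh7, an alcohol dehydrogenase that oxidises retinol, was measured at 1.25, 1.72 and 1.63 FPKM in the Emo-24h rats and 0.07, 0.05 and 0.03 FPKM in the SAP-24h rats (log2 fold change 4.71 ± 0.82, adjusted p = 0.00387). The lowest Emo-24h rat was far above the highest SAP-24h rat, and Sham-24h rats lay at 1.27, 1.89 and 2.58 FPKM. The keratin gene Krt76 stood at 4.67, 7.99 and 3.94 FPKM against 0.49, 0.82 and 0.41 FPKM (log2 fold change 3.11 ± 0.58, adjusted p = 0.00463), again with no overlap and with Sham-24h at the Emo-24h level (5.77, 7.8 and 3.53 FPKM). Il17b, a cytokine of the interleukin-17 family, was at 1.95, 0.99 and 1.08 FPKM against 0.17, 0.20 and 0.13 FPKM (log2 fold change 2.84 ± 0.58, adjusted p = 0.00661). Slitrk6, a membrane protein known from neurons and the inner ear, was at 1.53, 1.96 and 1.18 FPKM against 0.09, 0.33 and 0.21 FPKM (log2 fold change 2.73 ± 0.43, adjusted p = 0.00245). These 4 genes were stable.

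Other large rises were carried less evenly by the rats. Igsf23 was at 1.19, 3.47 and 2.29 FPKM against 0.24, 0.34 and 0.20 FPKM (log2 fold change 2.98 ± 0.78, adjusted p = 0.0226), and Ntrk2, the receptor of brain-derived neurotrophic factor, at 3.53, 3.03 and 1.15 FPKM against 0.46, 0.19 and 0.50 FPKM (log2 fold change 2.57 ± 0.63, adjusted p = 0.0168). Both were separated between the groups, and each was called in 3 of the 6 leave-one-out fits. Klrb1c, a receptor of natural killer cells, was at 1.09, 1.85 and 0.32 FPKM against 0.18, 0.12 and 0.05 FPKM (log2 fold change 3.03 ± 0.73, adjusted p = 0.0158), with Emo-24h replicate 3 nearest to the SAP rats. Since whole lung was sequenced, more cells of a type and more RNA per cell cannot be told apart. Aldh1a7, an aldehyde dehydrogenase, was highest by far in Emo-24h replicate 2 (0.87, 8.78 and 0.70 FPKM against 0.28, 0.20 and 0.11 FPKM, log2 fold change 3.92 ± 1.23, adjusted p = 0.0479). It was called in only 1 of the 6 fits.

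Several of the most abundant up-regulated DEGs changed by little more than 2-fold. Ppp1r14a, an inhibitor of myosin phosphatase in smooth muscle, was at 118, 114 and 98.6 FPKM against 27.4, 50.3 and 61.4 FPKM (log2 fold change 1.11 ± 0.28, adjusted p = 0.0209). The septin gene Sept4 was at 44.7, 49 and 36.5 FPKM against 10.2, 21.4 and 24.6 FPKM (log2 fold change 1.07 ± 0.28, adjusted p = 0.0227), and Lbh, a transcription cofactor, at 75.1, 75.1 and 45 FPKM against 14.9, 27.6 and 37.2 FPKM (log2 fold change 1.14 ± 0.28, adjusted p = 0.0182). SAP-24h replicate 1 was the lowest rat in all 3 genes, and without it none was called (0.86, 0.79 and 0.88). Npc2, a cholesterol carrier of lysosomes, was among the most abundant down-regulated DEGs, at 788, 1615 and 754 FPKM in SAP-24h and 469, 651 and 578 FPKM in Emo-24h (log2 fold change -1.04 ± 0.32, adjusted p = 0.0449), and it was called in 1 of the 6 fits.

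Hibch, a mitochondrial enzyme of valine breakdown singled out after its values were seen, had the smallest adjusted p among the up-regulated DEGs. Its level was 8.27, 8.13 and 8.17 FPKM in Emo-24h and 2.44, 3.1 and 3.42 FPKM in SAP-24h (log2 fold change 1.31 ± 0.16, adjusted p = 0.000255), and that of Sham-24h rats was 7.42, 7.82 and 7.29 FPKM. The treated rats were almost equal, above every Sham-24h rat, and the gene was stable.

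The largest falls within the same limits included the metallothionein genes, the matrix protease gene Adamts4 and the receptor genes Gpr84 and Tacr1. Adamts4, a protease that cleaves aggrecan and versican, was at 8.21, 1.26 and 2.06 FPKM in SAP-24h and 0.24, 0.20 and 0.26 FPKM in Emo-24h (log2 fold change -4.25 ± 0.79, adjusted p = 0.00463). The SAP-24h rats were spread over a wide range and all lay above the tight Emo-24h group. Ppp1r3g, which targets a phosphatase to glycogen, was at 2.8, 1.08 and 0.91 FPKM against 0.06, 0.16 and 0.12 FPKM (log2 fold change -3.93 ± 0.69, adjusted p = 0.00389). Nr4a3, an orphan nuclear receptor of the immediate early type, was at 2.62, 1.29 and 0.97 FPKM against 0.28, 0.14 and 0.10 FPKM (log2 fold change -3.44 ± 0.62, adjusted p = 0.00426). In both genes the groups did not overlap and SAP-24h replicate 1 was highest. Trim16, a protein of the response to damaged membranes and oxidative stress, showed another order, with 2.97, 12 and 7.16 FPKM against 1.34, 0.99 and 1.26 FPKM (log2 fold change -2.75 ± 0.43, adjusted p = 0.00226). Here SAP-24h replicate 1 was the lowest of its group, and without it the log2 fold change was -3.12. These 4 genes were stable.

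Other large falls were called in only some of the leave-one-out fits. Tacr1, the receptor of substance P, was at 2.65, 6.25 and 4.06 FPKM against 0.59, 0.26 and 0.30 FPKM (log2 fold change -3.64 ± 0.86, adjusted p = 0.0146) and lost its call only without Emo-24h replicate 2. Gpr84, a fatty acid receptor of activated myeloid cells, was at 2.63, 1.15 and 22.4 FPKM against 0.70, 0.59 and 0.25 FPKM (log2 fold change -4.21 ± 1.01, adjusted p = 0.0151). Its SAP-24h level came mostly from replicate 3, and it lost its call without that rat or without Emo-24h replicate 1 or 2. Has1, a hyaluronan synthase, was even within the groups (4.3, 3.37 and 3.97 FPKM against 0.41, 0.67 and 0.87 FPKM, log2 fold change -2.73 ± 0.70, adjusted p = 0.0209) and kept its call in 3 of the 6 fits. Gnat1, a transducin subunit known from rods, was at 18, 2 and 3.14 FPKM against 0.80, 0.67 and 1.11 FPKM (log2 fold change -3.37 ± 0.73, adjusted p = 0.00863). Without SAP-24h replicate 1 its log2 fold change was -1.69 and it was not called.

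**Figure D2:**
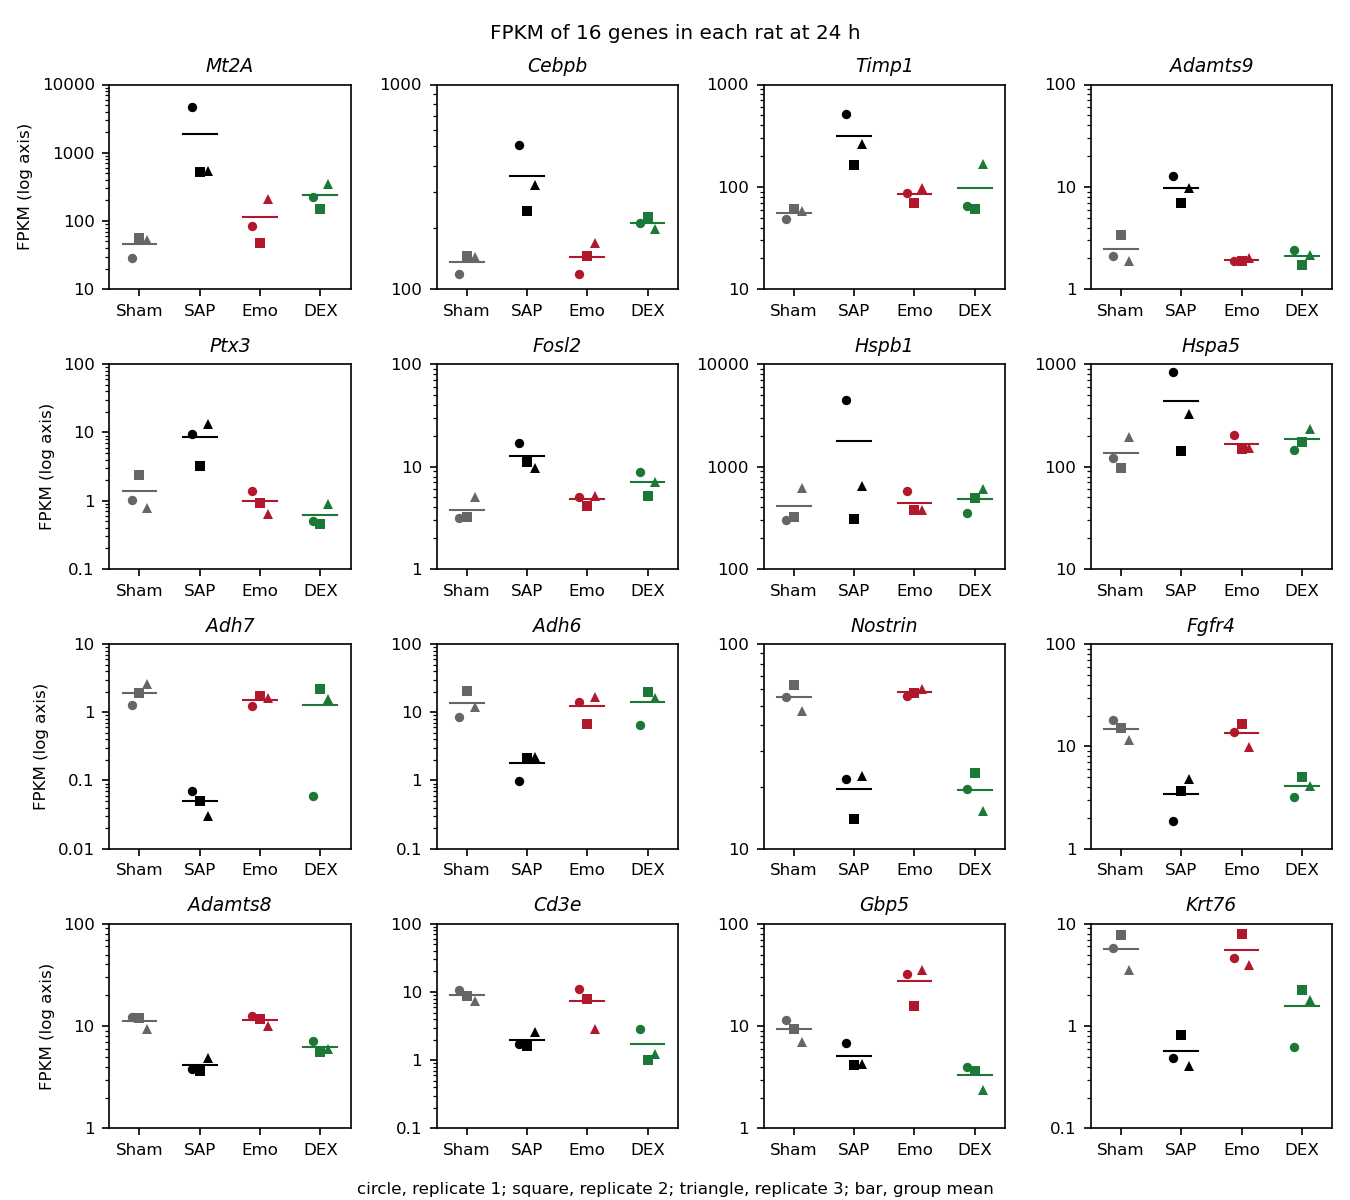
FPKM of 16 genes on log axes in each rat of Sham-24h, SAP-24h, Emo-24h and DEX-24h; circles, squares and triangles are replicates 1, 2 and 3, and bars are group means. Emo-24h and SAP-24h rats are apart in every panel except Hspb1 and Hspa5, where SAP-24h replicate 2 lies below the Emo-24h rats, and Gbp5 is the panel in which Emo-24h rats lie above all rats of the other 3 groups.

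Metallothioneins bind zinc and copper, and their genes are switched on by zinc, glucocorticoids and cytokines. Of 11 metallothionein and zinc transporter genes, 3 were down-regulated (27.3%, beside 1.26% of all genes) and 0 up-regulated (2 and 0 without SAP-24h replicate 1), and the median log2 fold change was -0.68 against 0.02 over all genes. The 3 DEGs were Mt2A and 2 entries named Mt1, and 250 bases upstream of the transcription start of Mt1 and Mt2A are shown here (RefSeq, GRCr8; Mt1 at chr19:10832976-10833225, minus strand; Mt2A at chr19:10838709-10838958, minus strand). Capitals mark matches to the metal response element, TGCACNC or TGCGCNC on either strand, which had 6 matches in Mt1 and 4 in Mt2A, and at least 1 match in 20.6% of 33469 rat promoters of this length.
Mt1: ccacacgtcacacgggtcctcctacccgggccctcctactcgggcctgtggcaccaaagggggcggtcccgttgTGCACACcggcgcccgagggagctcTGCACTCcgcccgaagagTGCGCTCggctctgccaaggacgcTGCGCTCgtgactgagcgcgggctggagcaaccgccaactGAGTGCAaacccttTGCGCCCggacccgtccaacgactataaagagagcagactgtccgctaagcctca
Mt2A: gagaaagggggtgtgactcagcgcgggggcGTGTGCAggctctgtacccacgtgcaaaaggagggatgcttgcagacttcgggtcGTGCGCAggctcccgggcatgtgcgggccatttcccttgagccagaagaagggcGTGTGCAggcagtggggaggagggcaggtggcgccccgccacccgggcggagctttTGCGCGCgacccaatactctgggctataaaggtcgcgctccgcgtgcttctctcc

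Mt2A was measured at 4646, 514 and 532 FPKM in SAP-24h, 85.3, 47.9 and 210.0 FPKM in Emo-24h, 28.9, 56.4 and 53.3 FPKM in Sham-24h and 222, 149 and 344 FPKM in DEX-24h. SAP-24h replicate 1 was far above its group, and the other SAP-24h rats were still above every rat of the other groups. The log2 fold change with emodin was -4.25 ± 1.09 (adjusted p = 0.021) with all rats and -2.29, not called, without SAP-24h replicate 1. The call was also lost without Emo-24h replicate 1 or 2. The abundant Mt1 entry, on chromosome 17, was at 2189.7, 342 and 302 FPKM against 49.7, 62.8 and 132 FPKM (log2 fold change -3.73 ± 0.66, adjusted p = 0.00389). The entry on chromosome 19 was at 56.3, 12.1 and 8.16 FPKM against 1.32, 1.88 and 4.43 FPKM (log2 fold change -3.51 ± 0.70, adjusted p = 0.0058). Both were stable, with a log2 fold change of -2.09 and -2.09 without SAP-24h replicate 1. The entry on chromosome 17 may be a copy of the gene, and the sequences of the 2 entries were not compared. How reads were divided between them, and whether they count as separate genes in a list, is therefore uncertain. The promoter shown for Mt1 lies on chromosome 19 and is not that of the abundant entry on chromosome 17.

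Chaperone genes form the heat shock response, which refolds damaged protein in the cytosol, and a second set of genes answers unfolded protein in the endoplasmic reticulum (ER). Of 32 heat shock chaperone genes 10 were down-regulated and 0 up-regulated (median log2 fold change -0.85), and of 37 unfolded protein and amino acid stress genes 8 were down-regulated and 0 up-regulated (-0.64). These were 31.2% and 21.6% of the lists, beside 1.26% of all genes called lower. Both counts depended on single rats. Without SAP-24h replicate 1, 0 genes of either list were called by edgeR, 8 and 15 had an unadjusted p under 0.05 (22.6% of all genes in that fit), and the medians were -0.13 and -0.30. With all rats, DESeq2 called 12 and 8 of them and limma on log2 FPKM called 1 in each list. Without SAP-24h replicate 2, which had the lowest chaperone levels of its group, the counts were 17 and 14, and without Emo-24h replicate 2 they were 2 and 0.

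Hspb1, a small heat shock protein, was at 4436, 306 and 643 FPKM in SAP-24h and 578, 373 and 374 FPKM in Emo-24h (log2 fold change -2.25 ± 0.61, adjusted p = 0.0273). Replicate 1 of SAP-24h alone was above the range of the Emo-24h rats by a wide margin, replicate 2 was below them, and the log2 fold change without replicate 1 was -0.23. The inducible Hspa1b was at 170.4, 3.49 and 39.3 FPKM against 4.48, 3.27 and 4.77 FPKM (log2 fold change -4.30 ± 0.92, adjusted p = 0.00773, and -2.46 and not called without SAP-24h replicate 1). Hspb8, which works with the co-chaperone Bag3 in clearing aggregates, was more even, at 72.6, 42.2 and 45.1 FPKM against 32.1, 24.6 and 25.2 FPKM (log2 fold change -1.14 ± 0.21, adjusted p = 0.00463), and Bag3 was at 77.3, 28 and 38.6 FPKM against 25.7, 23.2 and 26 FPKM (log2 fold change -1.12 ± 0.24, adjusted p = 0.00783). In these 2 genes the groups did not overlap, and the call was lost only without SAP-24h replicate 1 (-0.80 and -0.53).

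Hspa5, the major chaperone of the ER lumen, was at 849, 141 and 328 FPKM against 203, 148 and 152 FPKM (log2 fold change -1.59 ± 0.45, adjusted p = 0.0333, and -0.60 without SAP-24h replicate 1). Atf4, the factor that drives amino acid stress genes, was at 612, 254 and 335 FPKM against 216, 178 and 249 FPKM (log2 fold change -1.07 ± 0.29, adjusted p = 0.0265, and -0.57 without that rat). The groups overlapped in Hspa5 and not in Atf4. Hsph1, Stip1, Dnajb1, Fkbp4, Manf, Hyou1, Sdf2l1, Creld2 and Herpud1 were DEGs whose groups overlapped, since SAP-24h replicate 2 lay at or near the Emo-24h level in each. An entry named Hspa8 on chromosome 5, at about 1 FPKM, was called too (log2 fold change -1.06 ± 0.31, adjusted p = 0.04), and its reads may come from a copy of that gene.

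Promoters of 4 of these genes are shown to compare the letters that heat shock and ER stress factors bind (RefSeq, GRCr8, 250 bases upstream). In Hspb1 (chr12:26432302-26432551, minus strand) and Hsph1 (chr12:10427118-10427367, plus strand) capitals mark GAANNTTC or TTCNNGAA, the core of a heat shock element, present in 13.5% of rat promoters of this length and in each of the 8 called chaperone genes with a promoter in the table. In Hspa5 (chr3:38452766-38453015, plus strand) and Creld2 (chr7:121789134-121789383, plus strand) capitals mark the ER stress element, CCAAT and CCACG with 9 bases of any kind between them, present in 0.0657% of promoters and in 2 of the 7 called unfolded protein genes that were matched. Both strands were searched, and a match is a description of the letters only.
Hspb1: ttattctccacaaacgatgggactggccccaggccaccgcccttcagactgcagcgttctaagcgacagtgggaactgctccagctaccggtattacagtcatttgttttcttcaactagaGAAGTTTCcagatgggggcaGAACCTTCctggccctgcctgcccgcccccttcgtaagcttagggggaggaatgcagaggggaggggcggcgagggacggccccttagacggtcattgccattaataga
Hsph1: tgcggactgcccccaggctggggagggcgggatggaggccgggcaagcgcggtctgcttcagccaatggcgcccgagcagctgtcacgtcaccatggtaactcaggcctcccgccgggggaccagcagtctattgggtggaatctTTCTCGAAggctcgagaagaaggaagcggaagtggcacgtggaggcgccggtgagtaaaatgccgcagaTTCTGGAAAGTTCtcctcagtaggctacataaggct
Hspa5: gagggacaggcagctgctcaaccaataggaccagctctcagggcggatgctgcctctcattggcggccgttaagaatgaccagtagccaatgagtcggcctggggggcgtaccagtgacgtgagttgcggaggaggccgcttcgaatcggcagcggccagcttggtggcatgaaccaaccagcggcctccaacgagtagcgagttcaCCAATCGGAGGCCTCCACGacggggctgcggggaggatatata
Creld2: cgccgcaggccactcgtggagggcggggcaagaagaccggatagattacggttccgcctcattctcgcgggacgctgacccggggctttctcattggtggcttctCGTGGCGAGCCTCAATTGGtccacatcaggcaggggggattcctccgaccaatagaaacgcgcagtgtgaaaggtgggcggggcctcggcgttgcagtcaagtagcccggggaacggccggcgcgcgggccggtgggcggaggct

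**Figure D3:**
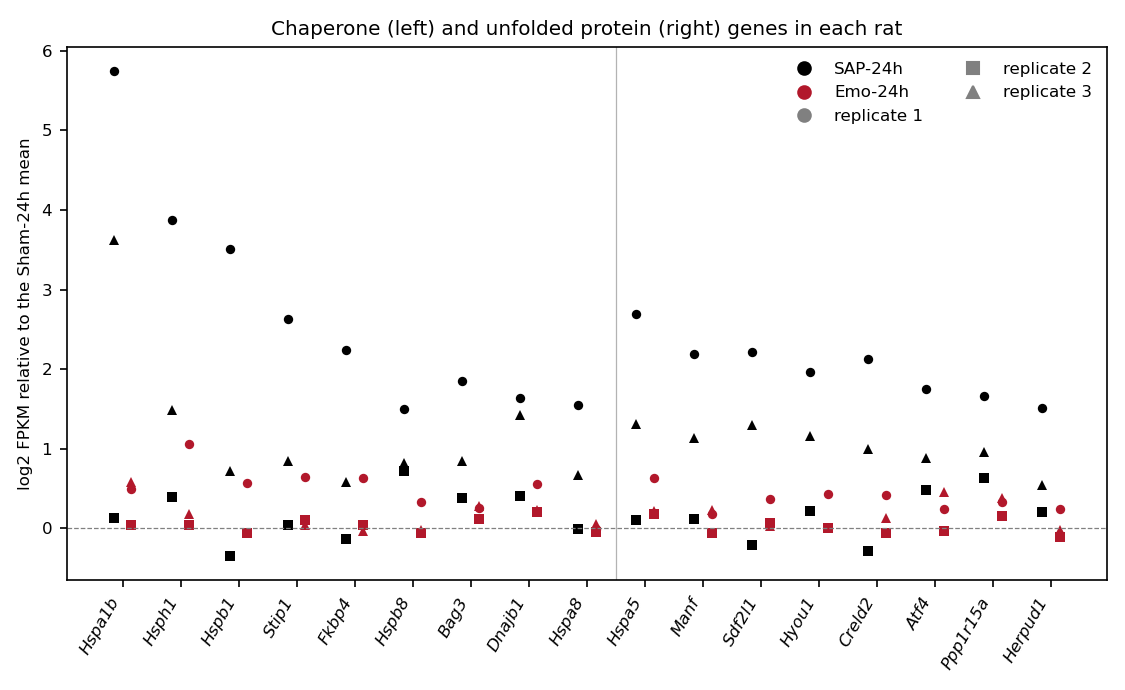
FPKM of 9 of the 10 called chaperone genes (left) and unfolded protein genes (right) in each SAP-24h rat (black) and Emo-24h rat (red), as log2 relative to the Sham-24h mean (dashed line); circles, squares and triangles are replicates 1, 2 and 3. SAP-24h replicate 1 is the highest point of every gene, and SAP-24h replicate 2 lies near the Emo-24h rats in most.

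Genes of factors downstream of cytokine receptors, and of their feedback inhibitors, fell where they passed the test. Of 27 SOCS and NF-kB feedback genes 5 were down-regulated and 0 up-regulated (median log2 fold change -0.64; 3, with a median of -0.35, without SAP-24h replicate 1), and of 28 immediate early and MAF factors 6 were down-regulated and 0 up-regulated (-0.80; 2, with a median of -0.38, without that rat). These were 18.5% and 21.4% of the lists, beside 1.26% of all genes called lower. Without Emo-24h replicate 2 the counts were 1 and 2, and without SAP-24h replicate 2 they were 8 and 9. Cebpb, which drives acute-phase and myeloid genes, was at 509, 241 and 324 FPKM in SAP-24h and 119, 146 and 167 FPKM in Emo-24h (log2 fold change -1.48 ± 0.28, adjusted p = 0.00465). Cebpd, of the same family, was at 792, 335 and 381 FPKM against 104, 74.9 and 229.7 FPKM (log2 fold change -2.04 ± 0.43, adjusted p = 0.00706). All SAP-24h rats lay above all Emo-24h rats in both genes. Cebpb was stable and Cebpd lost its call only without Emo-24h replicate 2, as did Bcl3, an IkB family member that modulates NF-kB (63.2, 27.3 and 46.6 FPKM against 13, 12.9 and 17.1 FPKM, log2 fold change -1.84 ± 0.41, adjusted p = 0.00944).

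Among inhibitors of cytokine signalling, Socs3 was at 287, 104 and 89.6 FPKM against 53.1, 52.2 and 52.9 FPKM (log2 fold change -1.79 ± 0.53, adjusted p = 0.0376). The Emo-24h rats were nearly equal, and the call was lost without SAP-24h replicate 1 and without any of the Emo-24h rats. Socs2, an inhibitor of growth hormone signalling, was at 78.8, 36.3 and 35 FPKM against 13.5, 15.6 and 33.1 FPKM (log2 fold change -1.43 ± 0.33, adjusted p = 0.0127). Its highest Emo-24h rat came close to the lowest SAP-24h rat, and without SAP-24h replicate 1 it was not called (-0.88). Fosl2, an AP-1 subunit, was at 17.2, 11 and 9.6 FPKM against 5.06, 4.14 and 5.18 FPKM (log2 fold change -1.57 ± 0.28, adjusted p = 0.00426) and was stable. Junb, Myc, Zfp36 and Maff fell as well (log2 fold change -1.57, -1.53, -1.41 and -1.37), and each lost its call without SAP-24h replicate 1 (-0.80, -0.60, -0.68 and -1.08). Nfil3, a bZIP repressor of the clock list, was at 47.6, 16 and 25.3 FPKM against 6.53, 7.74 and 9.02 FPKM (log2 fold change -2.11 ± 0.41, adjusted p = 0.00479) and was stable.

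Genes of acute-phase and antimicrobial proteins fell where they passed the test, with 6 of 33 down-regulated (18.2%, beside 1.26% of all genes) and 0 up-regulated (median log2 fold change -0.77, and the same without SAP-24h replicate 1, when 4 were called). Ptx3, a secreted pentraxin, was at 9.47, 3.23 and 13.4 FPKM in SAP-24h and 1.38, 0.93 and 0.64 FPKM in Emo-24h (log2 fold change -3.31 ± 0.52, adjusted p = 0.00226). Lbp, which carries lipopolysaccharide to CD14, was at 76.3, 80.5 and 92.6 FPKM against 43, 35.8 and 38.8 FPKM (log2 fold change -1.24 ± 0.25, adjusted p = 0.0058). Fgg, the gamma chain of fibrinogen, was at 31.8, 60.9 and 62.7 FPKM against 23.3, 20.6 and 23.2 FPKM (log2 fold change -1.35 ± 0.28, adjusted p = 0.00671). All 3 were stable, and SAP-24h replicate 1 was not their highest SAP rat. Timp1, an inhibitor of matrix metalloproteases, was at 518, 164 and 265 FPKM against 86.2, 69.1 and 98.4 FPKM (log2 fold change -2.08 ± 0.41, adjusted p = 0.00558) and was stable too. The interleukin-4 receptor gene Il4r, also of this list, fell (log2 fold change -1.13 ± 0.24, adjusted p = 0.00818) and lost its call only without SAP-24h replicate 1 (-0.65). Orm1, a plasma glycoprotein induced by glucocorticoids, was at 11.9, 15.5 and 24.5 FPKM against 1.44, 1.34 and 10.3 FPKM (log2 fold change -2.09 ± 0.63, adjusted p = 0.0421). DEX-24h rats were higher than both, at 61.5, 58.1 and 54.9 FPKM.

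Toll-like receptors, which sense microbial products, and their co-receptors changed in both directions, with 3 of 19 up-regulated and 1 down-regulated, 21.1% beside 3.19% of all genes (median log2 fold change -0.17, and -0.19 to 0.04 with single rats left out; 1 and 0 without SAP-24h replicate 1). The DEG that fell was Cd14, the co-receptor for lipopolysaccharide, at 158, 74.5 and 71 FPKM in SAP-24h and 37, 35 and 45.7 FPKM in Emo-24h (log2 fold change -1.54 ± 0.34, adjusted p = 0.00949). It lost its call without SAP-24h replicate 1 or Emo-24h replicate 2. Tlr3, the receptor of double-stranded RNA, rose from 1.33, 1.83 and 2.53 FPKM to 4.99, 2.88 and 5.25 FPKM (log2 fold change 1.07 ± 0.34, adjusted p = 0.0487) without overlap. Tlr11 (log2 fold change 2.19 ± 0.66, adjusted p = 0.0419) and Tlr12 (log2 fold change 1.70 ± 0.50, adjusted p = 0.0376), which sense profilin, also rose, and both were under 1 FPKM in every rat. Tlr3 and Tlr11 were called in 1 of the 6 leave-one-out fits and Tlr12 in 2.

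Neutrophils are the first leukocytes to enter the injured lung. Of 23 neutrophil markers 3 were down-regulated (13%, beside 1.26% of all genes) and 0 up-regulated (median log2 fold change -0.80). The count was 0 without any single Emo-24h rat, 1 without SAP-24h replicate 1 or 3, and 2 without SAP-24h replicate 2. In 9 of the 23 the Emo-24h rats were lower without overlap, beside 6.23% of all genes tested. The summed level of the list, most of it S100a8 and S100a9, was 13203, 5147 and 17026 FPKM in SAP-24h and 4850.0, 7062 and 4715 FPKM in Emo-24h, so that the groups overlapped. Red blood cell and platelet markers, other cells of the blood, had medians of -0.77 (15 of 17 below 0) and -0.67 (13 of 16 below 0), with 0 called by edgeR, DESeq2 or limma and 1 gene in each list at an unadjusted p under 0.05. Single rats moved both medians, to -0.12 for red blood cells without SAP-24h replicate 3 and to -0.14 for platelets without SAP-24h replicate 1. The red blood cell markers summed to 1453, 2657 and 1814 FPKM in SAP-24h and 1656, 396 and 443 FPKM in Emo-24h, and the part of blood in the neutrophil values was not tested. The 3 neutrophil DEGs were Trem1, Cxcr1 and the cathelicidin gene Camp, each called in 1 of the 6 leave-one-out fits. Camp was at 53.4, 39.4 and 51.7 FPKM against 12.8, 8.32 and 13.8 FPKM (log2 fold change -2.21 ± 0.62, adjusted p = 0.0316). The alarmin gene S100a8 was at 6662, 2065 and 7944 FPKM against 1905, 3078 and 2189 FPKM (log2 fold change -1.38 ± 1.01, adjusted p = 0.395), a difference within the spread of the SAP-24h rats. The marrow granule gene Mpo was under 1 FPKM in all of these 6 rats but SAP-24h replicate 1 (2.18, 0.16 and 0.52 FPKM against 0.48, 0.18 and 0.58 FPKM). Of 10 granule genes of marrow precursors 1 was down-regulated (median log2 fold change -1.18), and 0 and -0.50 were the count and median without SAP-24h replicate 1.

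Of 14 CXC chemokine genes, Cxcl14 and Cxcl2 were down-regulated and Cxcl12 was up-regulated (1 and 0 without SAP-24h replicate 1), 21.4% beside 3.19% of all genes. Cxcl14, an epithelial and fibroblast chemokine, was at 75.4, 32.8 and 33.6 FPKM against 12.9, 17.1 and 8.06 FPKM (log2 fold change -2.09 ± 0.41, adjusted p = 0.00565) and was stable. The neutrophil attractant Cxcl2 was at 8.19, 1.13 and 10.8 FPKM against 1.16, 0.98 and 2.19 FPKM (log2 fold change -2.36 ± 0.61, adjusted p = 0.021), with SAP-24h replicate 2 inside the Emo-24h range. Cxcl12, which holds leukocytes in tissue, was at 4.02, 4.63 and 3.43 FPKM against 15.4, 8.17 and 6.97 FPKM (log2 fold change 1.17 ± 0.31, adjusted p = 0.0246), while its scavenger receptor gene Ackr3 fell from 543, 263 and 269.8 FPKM to 102, 84.7 and 141 FPKM (log2 fold change -1.88 ± 0.36, adjusted p = 0.00465, stable). Il6 had the lowest log2 fold change of all DEGs (log2 fold change -5.66 ± 1.45, adjusted p = 0.0208), but its level of 11, 0.08 and 0.63 FPKM in SAP-24h came from replicate 1, the Emo-24h rats stood at 0.16, 0.11 and 0 FPKM, and without replicate 1 it was not called (-2.08). In 19 CC chemokine genes and 21 interleukin-1 family genes edgeR called 0 (medians 0.61 and 0.05, which ran from 0.11 to 0.65 and from -0.19 to 0.06 with single rats left out), with 4 and 5 genes at an unadjusted p under 0.05, and DESeq2 called 1 and 0.

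Coagulation and fibrinolysis genes fell where they passed, 5 of 28, or 17.9% beside 1.26% of all genes. Their median log2 fold change was -0.20, and -0.35 to -0.14 with single rats left out. The count was 1 without Emo-24h replicate 1, 2 without Emo-24h replicate 2 or SAP-24h replicate 1, and 4 or 5 otherwise. F2rl3, the thrombin receptor PAR4, had the smallest adjusted p of the down-regulated DEGs, with 1.36, 2.37 and 2.62 FPKM in SAP-24h and 0.57, 0.49 and 0.51 FPKM in Emo-24h (log2 fold change -2.15 ± 0.26, adjusted p = 0.000255). Plaur, the urokinase receptor, was at 30.8, 30.3 and 32.5 FPKM against 11.3, 14.1 and 20.9 FPKM (log2 fold change -1.16 ± 0.24, adjusted p = 0.00661), with SAP-24h rats almost equal. Plat, the tissue plasminogen activator, was at 547, 249 and 219 FPKM against 120.2, 71.7 and 173 FPKM (log2 fold change -1.65 ± 0.42, adjusted p = 0.0209), and Procr, the receptor of protein C, at 54.5, 22.5 and 22.8 FPKM against 15.8, 13.7 and 14.4 FPKM (log2 fold change -1.37 ± 0.35, adjusted p = 0.0214). No groups overlapped in these 4 genes. F2rl3 was stable, Plaur lost its call only without Emo-24h replicate 1, and Plat and Procr lost theirs without SAP-24h replicate 1 (-1.06 and -0.76). The fifth, Tfpi2, rested on SAP-24h replicate 1 (8.06, 0.15 and 0.87 FPKM; -3.22 with it and -0.54 without it).

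Of 30 matrix proteases and inhibitors 4 were called lower, Adamts4, Adamts9, Adamts1 and the inhibitor gene Timp1, and 2 were called higher, 20% beside 3.19% of all genes (3 and 1 without SAP-24h replicate 1). Adamts9, a versican-cleaving protease, was at 12.9, 6.96 and 9.64 FPKM in SAP-24h and 1.89, 1.88 and 2.03 FPKM in Emo-24h (log2 fold change -2.51 ± 0.34, adjusted p = 0.000744). Its relative Adamts8 went the other way, from 3.84, 3.62 and 4.89 FPKM to 12.5, 11.7 and 10 FPKM (log2 fold change 1.31 ± 0.27, adjusted p = 0.00685). Both were stable, with tight Emo-24h groups. Adamts1 fell (log2 fold change -1.20 ± 0.34, adjusted p = 0.0329) and lost its call without SAP-24h replicate 1 (-0.67). Adam12, a metalloprotease of mesenchyme, was the other up-regulated one, at under 0.2 FPKM (log2 fold change 2.17 ± 0.61, adjusted p = 0.0304). Among 41 collagen and collagen-modifying genes, the crosslinking enzyme gene Lox was down-regulated (42.6, 56.3 and 56.4 FPKM against 26.3, 20.6 and 27.6 FPKM, log2 fold change -1.21 ± 0.30, adjusted p = 0.0181), and Col6a6 and Col11a2 were up-regulated (1.99 and 1.27), of which Lox was called without SAP-24h replicate 1. These were 7.32% of the list, beside 3.19% of all genes. Tgfb2, a growth factor of fibrosis singled out after its values were seen, was at 24.7, 20.9 and 23.3 FPKM against 8.31, 8.99 and 12.5 FPKM (log2 fold change -1.36 ± 0.20, adjusted p = 0.00131) and was stable.

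The genes of T cells and natural killer cells that passed the test were all up-regulated. Of 24 T cell markers 4 were up-regulated (16.7%, beside 1.93% of all genes) and 0 down-regulated, and all 24 had a log2 fold change above 0 (median 1.34). DESeq2 called 13 of them and limma 0. Cd3e, a chain of the T cell receptor complex, was at 11.2, 7.93 and 2.84 FPKM in Emo-24h and 1.71, 1.63 and 2.58 FPKM in SAP-24h (log2 fold change 1.72 ± 0.51, adjusted p = 0.0385), and Sham-24h rats were at 10.6, 8.68 and 7.41 FPKM. Emo-24h replicates 1 and 2 were at the Sham-24h level, and replicate 3 lay just above the highest SAP-24h rat. The other DEGs were Cd3d (log2 fold change 1.58 ± 0.48, adjusted p = 0.0421), Cd27 (log2 fold change 2.20 ± 0.61, adjusted p = 0.029) and Bcl11b (log2 fold change 1.78 ± 0.45, adjusted p = 0.0199). The count was 0 without Emo-24h replicate 1, without Emo-24h replicate 2 and without SAP-24h replicate 1, 3 without either of the other SAP-24h rats, and 16 without Emo-24h replicate 3. The median ran from 1.01 to 1.64 in these fits. The summed level of the list was 152, 136 and 51.1 FPKM in Emo-24h and 37.7, 44.2 and 49.9 FPKM in SAP-24h.

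Of 21 cytotoxic and natural killer markers, Ctsw and Tbx21 were up-regulated (9.52%, beside 1.93% of all genes) and 0 down-regulated (median log2 fold change 1.27; DESeq2 called 4, limma 0). The count was 4 without Emo-24h replicate 3 and 0 without any other of the 6 rats. The lymphocyte cathepsin gene Ctsw was at 6.81, 4.97 and 1.7 FPKM against 1.08, 0.56 and 1.11 FPKM (log2 fold change 2.12 ± 0.65, adjusted p = 0.0451). Dendritic cell genes Xcr1 (log2 fold change 2.88 ± 0.77, adjusted p = 0.0251) and Siglech (log2 fold change 2.85 ± 0.81, adjusted p = 0.0323) were DEGs among 17 dendritic and mast cell markers (11.8%, beside the same share), of which 0 were called without SAP-24h replicate 1 and 5 without Emo-24h replicate 3. Xcr1 was under 1 FPKM in every rat, and its groups overlapped (0.77, 0.62 and 0.07 FPKM in Emo-24h, 0.03, 0.04 and 0.1 FPKM in SAP-24h). The list had a median log2 fold change of 0.88, with 13 genes above 0 and 4 below. The dendritic cell genes Clec9a (log2 fold change 0.88 ± 0.44, edgeR adjusted p = 0.207) and Batf3 (-0.95 ± 0.39, adjusted p = 0.124) did not pass. None of 23 B cell and plasma cell markers passed the test in edgeR, where 8 had an unadjusted p under 0.05 (DESeq2 called 3, limma 0). Of the 23, 15 were higher in Emo-24h without overlap, beside 23% of all genes tested (median log2 fold change 0.80). Cd79a, a chain of the B cell receptor, was at 28.6, 20 and 16.3 FPKM against 9.71, 11.4 and 16.1 FPKM (log2 fold change 0.64 ± 0.39, adjusted p = 0.29), with the highest SAP-24h rat next to the lowest Emo-24h rat. Of 27 macrophage and monocyte markers, 7.41% were called beside 3.19% of all genes: Cx3cr1 was up-regulated (log2 fold change 1.58 ± 0.47, adjusted p = 0.0408) and Cd14 was down-regulated, and neither was called without SAP-24h replicate 1, when 2 other genes of the list were called lower.

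Interferon-stimulated genes had a median log2 fold change of 1.50, with 43 of 44 above 0, but only Gbp5 passed the test by edgeR (DESeq2 called 5, limma 2). The median was 2.25 without SAP-24h replicate 1 and 1.08 without Emo-24h replicate 3, and the genes at an unadjusted p under 0.05 numbered 16 with all rats (26.3% of all genes tested) and 34 without SAP-24h replicate 1 (22.6%). The Emo-24h rats were above the SAP-24h rats without overlap in 16 of the 44, beside 23% of all genes tested. Gbp5, a guanylate-binding protein of the inflammasome, was at 32.1, 15.7 and 35.1 FPKM in Emo-24h and 6.79, 4.14 and 4.28 FPKM in SAP-24h (log2 fold change 2.28 ± 0.68, adjusted p = 0.0398), while Sham-24h rats were at 11.6, 9.45 and 7.05 FPKM and DEX-24h rats at 3.98, 3.68 and 2.39 FPKM. Emo-24h rats were above all others, and the call was lost in each of the 6 leave-one-out fits, while 1 other gene of the list, Psmb8 (named after its values were seen), was called without SAP-24h replicate 1. Samd9l, Ddx60 and Uba7, known as interferon-induced and named for the size of their rise, were at 18.5, 9.72 and 33.5, 4.56, 1.9 and 5.22 and 9.63, 3.47 and 8.15 FPKM in Emo-24h and at 5.25, 1 and 2, 0.86, 0.28 and 0.31 and 1.53, 0.69 and 0.95 FPKM in SAP-24h. Their log2 fold changes were 2.73 ± 0.81, 2.83 ± 0.89 and 2.57 ± 0.78 (adjusted p = 0.0387, 0.0497 and 0.0425). No groups overlapped, and these calls held in 1, 0 and 0 of the 6 fits.

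Adh6, an alcohol dehydrogenase, was at 14, 6.66 and 16.4 FPKM in Emo-24h and 0.99, 2.14 and 2.23 FPKM in SAP-24h (log2 fold change 2.66 ± 0.44, adjusted p = 0.00268) and was stable. It was, with Adh7 and Aldh1a7, one of 3 up-regulated genes among 31 alcohol and retinaldehyde dehydrogenases (2 without SAP-24h replicate 1), of which Aldh1l1, an enzyme of folate metabolism, was down-regulated (0.92, 1.16 and 1.51 FPKM in SAP-24h and 0.46, 0.47 and 0.48 FPKM in Emo-24h, log2 fold change -1.49 ± 0.29, adjusted p = 0.00504). Ciliated cell genes had 3 up-regulated members of 37 and 0 down-regulated ones, 8.11% beside the 1.93% called higher over all genes (median log2 fold change 0.27; without SAP-24h replicate 1 the count was 0 and the median 0.14, and without Emo-24h replicate 3 the count was 0). They were Zmynd12 (log2 fold change 1.49 ± 0.36, adjusted p = 0.0168), Ccdc96 (log2 fold change 1.23 ± 0.32, adjusted p = 0.0232) and Stoml3 (log2 fold change 2.80 ± 0.86, adjusted p = 0.0438). Zmynd12 was at 3.36, 3.2 and 4.41 FPKM against 0.85, 1.24 and 1.46 FPKM. The axonemal dynein gene Dnah5, with a log2 fold change of 0.36 ± 0.41 (adjusted p = 0.601), did not pass. Of 22 club cell, goblet and mucin genes only Muc4 was called, 4.55% beside 1.93% of all genes called higher, and 0 without SAP-24h replicate 1. It was at a very low level (0.26, 0.06 and 0.15 FPKM against 0, 0.02 and 0.01 FPKM). The club cell marker Scgb1a1 had lower values with emodin, without overlap, and was not called (36900.1, 46742 and 38096 FPKM in SAP-24h and 36421, 27897 and 24946 FPKM in Emo-24h, log2 fold change -0.61 ± 0.24, adjusted p = 0.106).

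Of 24 alveolar type 2 markers 1 was down-regulated, the collectin gene Sftpd, at 182, 446 and 375 FPKM against 212, 146 and 188 FPKM (log2 fold change -1.01 ± 0.29, adjusted p = 0.0367), with SAP-24h replicate 1 inside the Emo-24h range. The median of the type 2 list was -0.39, with 18 of 24 below 0 and 11 at an unadjusted p under 0.05. This list also held Ager (log2 fold change -0.01), which was on the alveolar type 1 list too. Of 22 fluid clearance genes 1 was down-regulated, Atp1b1, the beta subunit of the sodium pump (146, 269 and 178 FPKM against 106, 76.3 and 143 FPKM, adjusted p = 0.0395). These shares, 4.17% and 4.55%, stood beside 1.26% of all genes called lower, and each rested on 1 gene. Without SAP-24h replicate 1 the counts were 2 and 1. In 18 alveolar type 1 markers and 25 tight junction genes edgeR and DESeq2 called 0 (medians 0.10, from -0.22 to 0.34 with single rats left out, and -0.13), with 2 and 5 genes at an unadjusted p under 0.05.

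Of 40 endothelial genes 2 were called higher and 2 lower (10%, beside 3.19% of all genes tested), and 0 and 1 without SAP-24h replicate 1. The median log2 fold change was 0.11 (-0.01 to 0.18 with single rats left out), and 36 were not called. The counts were 3 higher and 3 lower without Emo-24h replicate 3 or SAP-24h replicate 2. They were 4 and 4 without SAP-24h replicate 3. Hpgd, which inactivates prostaglandins, was the less even of the up-regulated pair (69.5, 52.2 and 60.1 FPKM against 15.3, 15.7 and 38.1 FPKM, log2 fold change 1.26 ± 0.38, adjusted p = 0.0412; called in 1 of the 6 fits). Nrp1, a co-receptor of VEGF and semaphorins, was at 36.4, 42.9 and 22.7 FPKM in Emo-24h and 9, 16.9 and 15.8 FPKM in SAP-24h (log2 fold change 1.14 ± 0.25, adjusted p = 0.00926, and 0.92, not called, without SAP-24h replicate 1). Ednrb, the endothelin B receptor, was at 48.3, 46.6 and 47.6 FPKM in SAP-24h and 26.1, 25.9 and 19.3 FPKM in Emo-24h (log2 fold change -1.16 ± 0.24, adjusted p = 0.00661) and was stable. S1pr1, the sphingosine-1-phosphate receptor that holds the barrier, was at 225, 147 and 143 FPKM against 98.5, 77.4 and 104 FPKM (log2 fold change -1.05 ± 0.26, adjusted p = 0.0182, and -0.75, not called, without SAP-24h replicate 1). Nostrin, which traffics endothelial nitric oxide synthase, was named for its abundance: it was at 56, 57.5 and 60.6 FPKM in Emo-24h and 21.9, 13.9 and 22.6 FPKM in SAP-24h (log2 fold change 1.42 ± 0.25, adjusted p = 0.00387) and was stable. DEX-24h rats, at 19.6, 23.3 and 15.3 FPKM, overlapped the SAP-24h rats. The pan-endothelial cadherin gene Cdh5 had a log2 fold change of -0.04 ± 0.18 (adjusted p = 0.907).

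Among mesenchymal genes the median log2 fold change was 0.43 over 31 fibroblast, pericyte and smooth muscle markers, with 2 DEGs in each direction, 12.9% beside 3.19% of all genes (0 in both without SAP-24h replicate 1). Postn and Lum, matrix proteins of fibroblasts, rose (log2 fold change 1.46 ± 0.40, adjusted p = 0.0274 and log2 fold change 1.85 ± 0.53, adjusted p = 0.0335), with Emo-24h replicate 3 lowest in both. Kcnj8 and Pdgfra fell (-2.34 and -1.08), and both lost their call without SAP-24h replicate 1 (-0.63 and -0.57). Fgfr4, a fibroblast growth factor receptor, was at 13.9, 16.6 and 9.95 FPKM in Emo-24h and 1.88, 3.66 and 4.8 FPKM in SAP-24h (log2 fold change 1.83 ± 0.38, adjusted p = 0.00692). Wnt4 was at 12.7, 19.2 and 20.1 FPKM in SAP-24h and 6.68, 8.64 and 9.33 FPKM in Emo-24h (log2 fold change -1.22 ± 0.17, adjusted p = 0.00117). These 2 were stable, and Wif1, a WNT inhibitor, was the only other DEG of 56 FGF, BMP, WNT and Notch genes (log2 fold change 1.53 ± 0.46, adjusted p = 0.0407, not called without SAP-24h replicate 1), 5.36% of them beside 3.19% of all genes tested. Sema7a, a membrane semaphorin that acts on leukocytes, was at 219, 121 and 102 FPKM in SAP-24h and 34.7, 24.3 and 59.9 FPKM in Emo-24h (log2 fold change -2.06 ± 0.42, adjusted p = 0.00661) and was stable.

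Of 20 circadian clock genes 2 were called higher, Per3 and Dbp, and 1 lower, Nfil3, 15% beside 3.19% of all genes (median log2 fold change 0.19; 3 and 2 without SAP-24h replicate 1). Per3, a period protein, was at 4.45, 5.56 and 4.01 FPKM against 1.51, 2.44 and 1.07 FPKM (log2 fold change 1.32 ± 0.28, adjusted p = 0.00686) and was stable, while the clock output factor gene Dbp was at 87.6, 59.5 and 28.6 FPKM against 6.55, 18.5 and 6.04 FPKM (log2 fold change 2.33 ± 0.66, adjusted p = 0.0323) and was called in 2 of the 6 fits. The hour of the day at which rats were killed was not given in the sources used here. Of 25 glucocorticoid target genes 6 were down-regulated (24%, beside 1.26% of all genes) and 0 up-regulated (median log2 fold change -0.90). They were Mt2A, both Mt1 entries, Cebpd, Cdkn1a and Errfi1, an inhibitor of the EGF receptor (log2 fold change -1.39 ± 0.34, adjusted p = 0.0179). The count was 3 without SAP-24h replicate 1, 2 without Emo-24h replicate 2 and 10 without Emo-24h replicate 3. Cytochrome P450 genes Cyp39a1 and Cyp26a1 were up-regulated (log2 fold change 1.43 ± 0.34, adjusted p = 0.0155 and log2 fold change 3.64 ± 0.88, adjusted p = 0.0161), the second at under 0.5 FPKM. They were 2 of 24 genes of the list (8.33%, beside 1.93% of all genes called higher), and 2 were called without SAP-24h replicate 1, Cyp39a1 and Cyp26b1, the latter named after its values were seen. In the targets of the aryl hydrocarbon receptor and of NRF2, which sense aromatic compounds and oxidants, edgeR called 0 of 11 and 0 of 34 genes (medians -0.11 and -0.01), with 1 and 11 at an unadjusted p under 0.05, and DESeq2 called 0 and 1.

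Across the 58 gene lists examined, 40 had at least 1 DEG. The called members were all lower in 20 lists and all higher in 9. Over all genes tested 3.19% were called, 1.93% higher and 1.26% lower. Lists differed in size and shared members such as Cd14, Timp1 and Mt2A, so 1 DEG could count in several lists. How many lists would hold a DEG at the share of all genes was not computed. The mitochondrial genome, oxidative phosphorylation, proliferation and complement lists were among the 18 lists with no call.

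**Figure D4:**
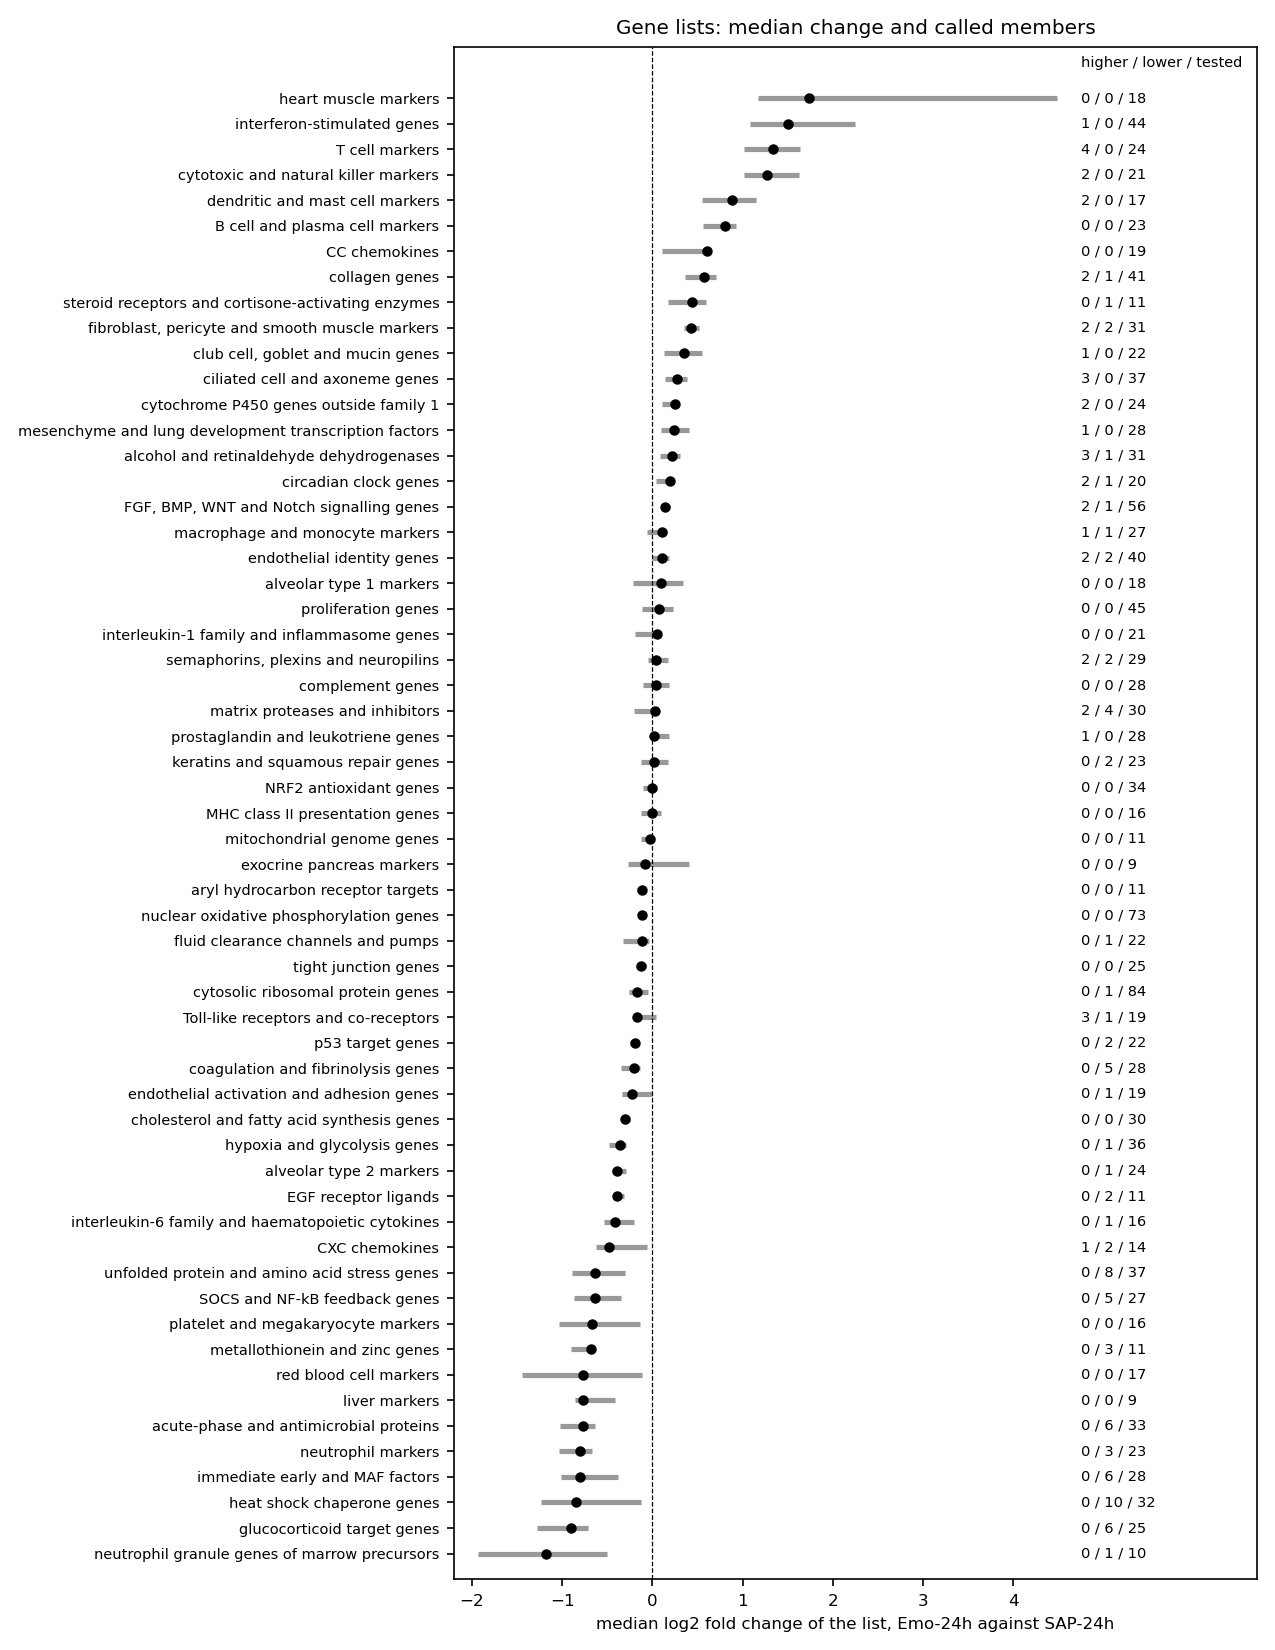
Median log2 fold change of each of the 58 gene lists in Emo-24h against SAP-24h (dots), the range of that median over the 6 fits that each left out 1 rat (grey bars), and the numbers of genes called higher, called lower and tested (right). Heart muscle genes have the highest median at 1.74 with the widest bar and no call, and the heat shock list runs from -1.24 to -0.13 depending on the rat left out.

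Genes measured by PCR in the study were looked up as well. Here 10 of these 17 were DEGs. Besides those above, Tbx2 and Serpinb9 were up-regulated (log2 fold change 1.06 ± 0.24, adjusted p = 0.0112 and log2 fold change 1.22 ± 0.33, adjusted p = 0.0261) and Cdkn1a, a cell cycle inhibitor, was down-regulated (log2 fold change -1.72 ± 0.46, adjusted p = 0.0262). None of these 3 was called without SAP-24h replicate 1 (0.98, 1.18 and -1.48). Susd2 was at 12.7, 22.9 and 8.89 FPKM against 2.36, 5.84 and 5.3 FPKM, separated but not called (log2 fold change 1.57 ± 0.53, adjusted p = 0.0639), and Serpina1 had a log2 fold change of 0.79 ± 0.43 (adjusted p = 0.251). None of the 5 lncRNAs among the 17 was called, with log2 fold changes from 1.05 for AABR07062477.2 (adjusted p = 0.153) to 2.70 for AABR07051642.1 (adjusted p = 0.0898). AABR07062477.2 was at 3.78, 3.76 and 3.95 FPKM against 0.86, 2.44 and 1.73 FPKM, and Rn60_7_1164.1 at 12.9, 17.4 and 8.42 FPKM against 6.27, 4.27 and 5.96 FPKM (log2 fold change 1.06 ± 0.38, adjusted p = 0.0782), both without overlap. Rn60_20_0066.11 (1.48) and AABR07051639.1 (1.29) were the others. These genes had been chosen by the study on such samples and are no independent evidence of direction.

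Of 380 annotated lncRNAs tested, 5 were up-regulated and 4 were down-regulated, a share below the 3.19% called over all genes tested. AABR07012047.1 was at 1.68, 2.29 and 1.27 FPKM in Emo-24h and 0.45, 0.46 and 0.67 FPKM in SAP-24h (log2 fold change 1.58 ± 0.30, adjusted p = 0.00479). AABR07047256.1 was at 8.39, 4.2 and 3.28 FPKM in SAP-24h and 1.73, 1.51 and 1.12 FPKM in Emo-24h (log2 fold change -2.04 ± 0.39, adjusted p = 0.00479). AABR07004868.2 was at 22.3, 14.6 and 11.2 FPKM in SAP-24h and 2.01, 1.3 and 3.41 FPKM in Emo-24h (log2 fold change -3.00 ± 0.60, adjusted p = 0.0059). All 3 were stable and had no overlap between groups.

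Emo-24h rats were then set directly against Sham-24h and DEX-24h rats, comparisons that share the Emo-24h rats with the one above. In Emo-24h vs Sham-24h edgeR called 0 genes (0% of those tested), as did DESeq2 and limma, while 478 genes had an unadjusted p under 0.05 and 207 of them changed at least 2-fold. Leaving out Emo-24h replicate 2 gave 1 call, Csap1, named after its value was seen (log2 fold change 9.52, adjusted p = 0.0199). The interferon list had a median of 1.60 in this comparison with 0 calls. A p that misses the threshold does not show that treated and sham lungs were alike. SAP-24h vs Sham-24h, which shares the SAP-24h rats with the main comparison, gave 796 DEGs (5%), 316 higher and 480 lower in SAP-24h, against 402 higher and 347 lower without SAP-24h replicate 2. The total was 402 without SAP-24h replicate 1 and 3 with the compared groups alone. The log2 fold change of Adh7 was -5.06 and that of Mt2A was 5.55 in SAP-24h vs Sham-24h, and they were -0.35 ± 0.62 and 1.30 ± 0.98 in Emo-24h vs Sham-24h.

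Emo-24h vs DEX-24h gave 807 DEGs (5.06%), 609 higher and 198 lower in Emo-24h. Without Emo-24h replicate 2 there were 386, 290 higher and 96 lower, and limma called 434. Among the 609 were 18 of 24 T cell markers (median log2 difference 1.91), 12 of 21 cytotoxic markers, 14 of 23 B cell markers, 8 of 16 MHC class II genes and 21 of 44 interferon-stimulated genes (2.70). Cd3e differed by 2.00 ± 0.51, adjusted p = 0.0156, Gbp5 by 2.98 ± 0.70, adjusted p = 0.00899 and Nostrin by 1.51 ± 0.25, adjusted p = 0.000742 on the log2 scale. Among the 198 were 12 of 25 glucocorticoid targets (median -1.21) and 7 of 30 cholesterol and fatty acid synthesis genes. Orm1 differed by -3.76 ± 0.67, adjusted p = 0.00133. Adamts9 (-0.18 ± 0.33, adjusted p = 0.832) and Adh7 (0.21 ± 0.63, adjusted p = 0.908) did not pass the test, and 1 DEX-24h rat had Adh7 at the SAP-24h level.

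The effect at 24 h, after 2 doses, was finally set against the effect at 6 h in Emo-6h vs SAP-6h by an interaction term, which is their difference on the log2 scale. Emo-6h rats had only the first dose, so the hour and the number of doses cannot be told apart. At 6 h edgeR called 4 genes, Rpl32, AABR07027451.1, AABR07032348.2 and Ly6g6c, all lower and named after their values were seen, and none of them was a DEG at 24 h. The effects differed between the times in 268 genes (1.68% of those tested), 169 with a higher and 99 with a lower effect at 24 h. Without SAP-24h replicate 2 the split was 126 and 189. Of 44 such genes named here, 14 passed without SAP-24h replicate 1, 2 without Emo-6h replicate 1 and 1 without SAP-6h replicate 2. Adh7 had a log2 fold change of -2.09 at 6 h and 4.71 at 24 h (difference 6.80 ± 1.11, adjusted p = 0.0135). Timp1 went from 0.46 to -2.08 (-2.54 ± 0.57, adjusted p = 0.0251), Cebpb from 0.18 to -1.48 (-1.66 ± 0.39, adjusted p = 0.0295) and Hibch from -0.32 to 1.31 (1.63 ± 0.23, adjusted p = 0.00429). None of these 4 genes passed the test at 6 h. The count was sensitive to the rats at 6 h: it was 3 without Emo-6h replicate 1 (Adh7, Hibch and Rcan1) and 1 without SAP-6h replicate 2 (Hibch).

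**Figure D5:**
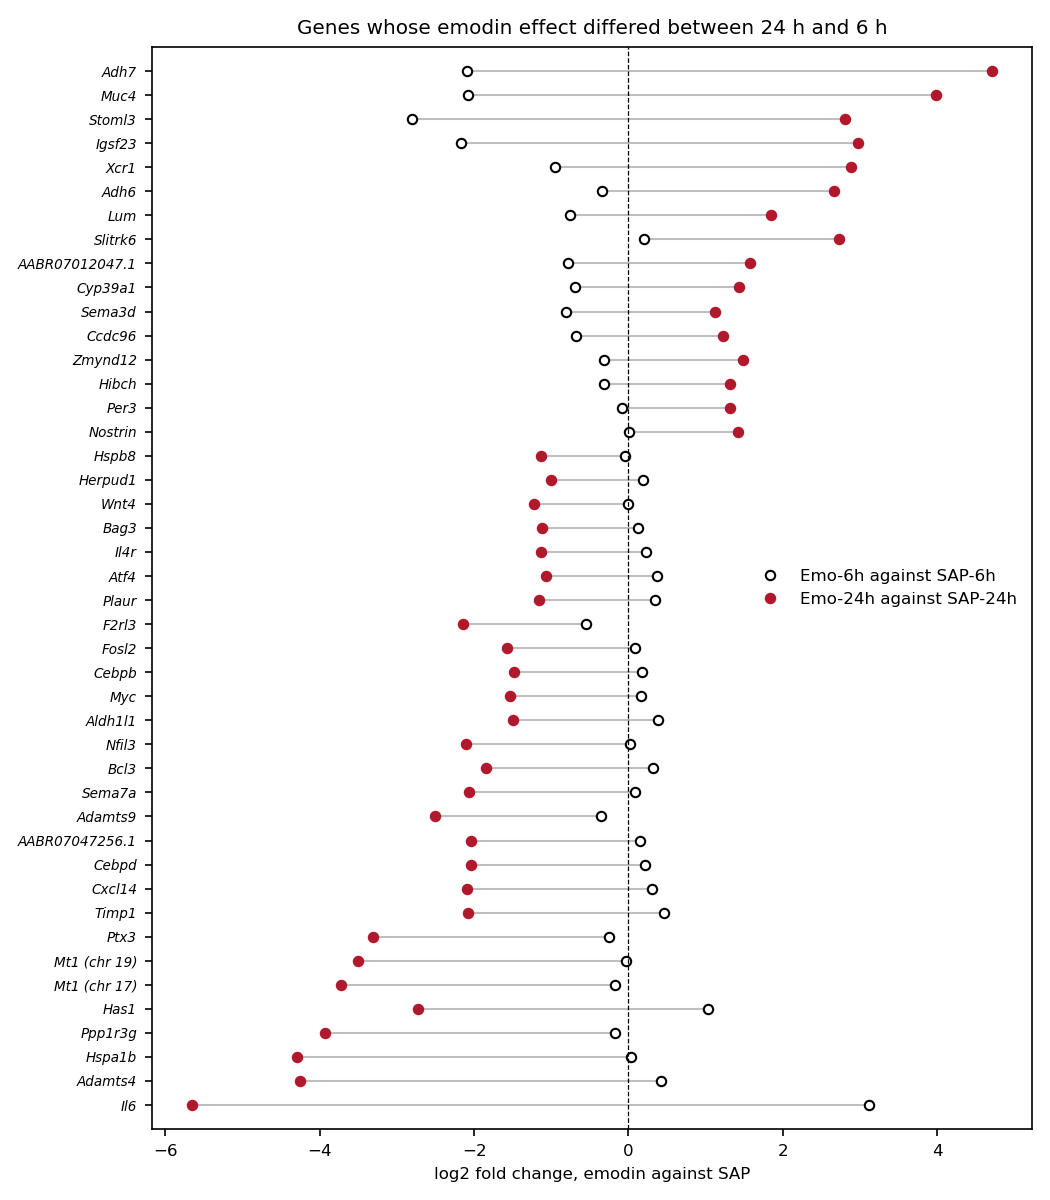
Log2 fold change of emodin against SAP at 6 h (open circles) and at 24 h (red) for the 44 named genes whose effects differed between the times in the interaction test. Il6 has the longest line, from above 0 at 6 h to -5.66 at 24 h, and 16 genes lie higher at 24 h.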

How the data were processed

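Polyadenylated lung RNA was sequenced as strand-directed paired 150-base reads, which the authors aligned with TopHat2 to rat_ensembl_v6, discarding reads with several matches. The counting program is not given in the sources used here. The deposited files hold read counts per gene (22914 genes) and FPKM values made by the authors. Counts were analysed with edgeR 4.0.16 in R 4.3.3: TMM scaling, a filter at a minimum count of 10 and a total of 15, and quasi-likelihood tests in 1 model of 10 groups and 30 libraries (20 residual degrees of freedom). Calls needed a 2-fold change at an adjusted p below 0.05. Alternatives used DESeq2 1.42.0, limma 3.58.1 on log2(FPKM + 1), other scaling and filters, and models without 1 library. Named genes were the 12 most changed and 8 most abundant called genes in each direction with separated groups, a mean of at least 1 FPKM in one of them and a symbol that is not a clone or locus number, up to 8 called genes per list, the leading markers of each cell type, up to 6 lncRNAs and 17 genes the study measured by PCR. These groups and lists were chosen with earlier results of these data known. In simulated counts 158 of 200 changed genes and 4 unchanged genes were called. Promoters came from RefSeq (GRCr8), matched by symbol and chromosome, and are not in the build of the deposited files.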

Additional observations from a re-analysis of the deposited data

Results flagged for a closer look

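The emodin effect at 24 h differed from the effect at 6 h in 44 of the named genes, by a test of the difference itself (edgeR interaction term, adjusted p under 0.05 and at least 2-fold). The value given for each gene is the log2 fold change at 24 h minus that at 6 h. It was above 0 for Adh7 (6.80), Igsf23 (5.16), Slitrk6 (2.53), Adh6 (3.00), Nostrin (1.41), Xcr1 (3.83), Zmynd12 (1.81), Ccdc96 (1.91), Stoml3 (5.61), Muc4 (6.07), Lum (2.61), Sema3d (1.93), Per3 (1.41), Cyp39a1 (2.11), AABR07012047.1 (2.37) and Hibch (1.63). It was below 0 for Adamts4 (-4.67), Ppp1r3g (-3.76), Mt1 on chromosome 17 (-3.55), Mt1 on chromosome 19 (-3.48), Ptx3 (-3.06), Has1 (-3.75), Cebpd (-2.26), Atf4 (-1.44), Cebpb (-1.66), Cxcl14 (-2.40), Il6 (-8.79), Bcl3 (-2.15), Timp1 (-2.54), Il4r (-1.36), F2rl3 (-1.60), Plaur (-1.51), Adamts9 (-2.17), Sema7a (-2.15), Wnt4 (-1.22), Fosl2 (-1.65), Myc (-1.69), Nfil3 (-2.12), Aldh1l1 (-1.86), Hspb8 (-1.10), Hspa1b (-4.33), Bag3 (-1.24), Herpud1 (-1.19) and AABR07047256.1 (-2.19). These genes had been named for their change at 24 h, so the direction of the difference is not independent of that choice. With 1 of the 12 rats of these groups left out, 1 to 44 of the 44 genes passed, and fewer than 10 did without Emo-24h replicate 1 (8), Emo-24h replicate 2 (6), Emo-6h replicate 1 (2), Emo-6h replicate 3 (7) or SAP-6h replicate 2 (1). Without SAP-24h replicate 1, 14 passed, and the value was smaller by more than 1.5 times in Il6 (-5.19), Hspa1b (-2.48), Mt1 on chromosome 17 (-1.90), Mt1 on chromosome 19 (-2.06), Atf4 (-0.93), Il4r (-0.88), Myc (-0.75), Bag3 (-0.65) and Herpud1 (-0.65). Groups of 3 rats were not tested for outlying values of single genes.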

How the results depend on the processing

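The 508 DEGs of Emo-24h vs SAP-24h became 1182 with an unadjusted p, 0 with the 6 libraries alone, 205 with limma on log2(FPKM + 1) and 136 to 521 when 1 library was left out. Of the 508, 308 were higher and 200 lower, against 213 and 289 without SAP-24h replicate 2, 68 and 68 without Emo-24h replicate 2 and 231 and 204 without a filter. The 268 genes of the comparison of times became 1399 with an unadjusted p, 605 with DESeq2, 2 with the compared groups alone (Adh7 and Igsf23), 91 with limma and 1 to 605 with 1 library left out, the lowest without SAP-6h replicate 2. The 0 genes of Emo-24h vs Sham-24h became 207 with an unadjusted p and 0 to 1 with 1 library left out. Emo-24h vs DEX-24h gave 1326 genes with an unadjusted p, 434 with limma and 386 to 892 with 1 library left out, the lowest without Emo-24h replicate 2. SAP-24h vs Sham-24h gave 1329, 342 and 402 to 840 by the same changes, the lowest without SAP-24h replicate 1, and 3 with the compared groups alone (Ptprn, Has1 and Rps6, named after their values were seen). The number of lists with a DEG, 40, became 0 with the 6 libraries alone and 19 to 38 with 1 library left out. The cause of these differences was not tested.

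Of 140 DEGs among the named genes none changed sign under any alternative run, and 138 kept the call with RLE scaling, 140 with DESeq2, 129 without a filter, 77 with limma and 97 in a model of the 15 libraries at 24 h. Genes that were not called changed sign in places. With 1 library left out in turn, the log2 fold change ran from -1.94 to 0.19 for Mpo, -1.37 to 0.15 for Prtn3, -1.06 to 0.37 for Pf4 and -0.94 to 0.49 for Apoa1, each highest without SAP-24h replicate 1. It ran from -3.31 to 0.44 for Marco and -0.37 to 0.03 for Cd68, each highest without SAP-24h replicate 2, from -0.11 to 0.49 for Msr1, from -0.22 to 0.07 for Cdh5 and from -0.33 to 0.20 for Ager. With limma it was 0.10 for Cdh5 and 0.22 for Ager. Ager, at -0.01 with all rats, was 0.01 with a minimum count of 50, 0.00 with the 6 libraries alone and 0.02 with a replicate block.

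The labels number the rats 1 to 3 in each group. Deviations of same-numbered Emo-24h and SAP-24h rats correlated at -0.0405, 0.0843 and -0.0907, and those of differently numbered rats at -0.0901 to 0.121. No sign of pairing by number was seen, and a check on so few rats cannot show that they were unpaired. A fit with the replicate number as a block called 445 genes, 262 of them higher.

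Of the 194 DEGs with a mean under 100 reads per library 10.8% were called in each of the 6 fits without 1 rat, and of the 314 with 100 reads or more 19.1% were, by a limit chosen after seeing the data.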
